A study of Mus musculus with 8 samples.

Results

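Untreated CD90-positive (CD90pos) cells were set against untreated CD90-negative (CD90neg) cells of PyMT, a mouse cell line from a primary mammary tumour, by RNA sequencing of sorted populations. Its fold changes came from 4 of the 8 libraries of the series, 2 per population, and 12962 of the 12964 genes measured, while all 8 libraries entered the fit that gave the spread and the p-values. It asked how the 2 populations differ before any cytokine is given. In the CD90pos control group and in the CD90neg control group the libraries carry the letters A and B, by which they were paired. The CD90pos IFNg and CD90neg IFNg groups, with 10 IU per ml of interferon gamma for 24 h, held 2 libraries each. In the limma fit of all 8 libraries they entered the control fold changes nowhere. They did enter the shared estimate of spread, and with it the calls. Where a control library was left out, the difference between letters was estimated in part from the IFNg libraries. The control fold changes of such fits therefore drew on them too. All groups shared the line, a genotype given as WT and a low-serum medium with insulin and EGF. The meaning of the letters, the order of sorting and culture, and any origin of libraries in separate cultures are not given by the labels. The spread behind every p-value is therefore that of these libraries and may be technical.

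CD90 is a small glycoprotein held in the outer membrane leaflet by a lipid anchor and encoded by Thy1. It is used as a marker of fibroblasts, mesenchymal stem cells, mouse T cells and a subset of mammary tumour cells. PyMT tumours are driven by the polyoma virus middle T protein. Normal mammary ducts have an inner layer of luminal cells, which make keratins 8 and 18 and milk proteins, and an outer layer of basal, or myoepithelial, cells, which make keratins 5 and 14 and the contractile proteins of smooth muscle that squeeze milk out of the gland.

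The 8 libraries held between 31243646 and 40899909 reads, and 3 reads corresponded to between 2.55 and 3.37 normalized reads, that is, reads divided by a size factor for each library. Thy1, the sort marker and no finding, was at 283 and 1495 normalized reads in CD90pos control libraries A and B, against 20.6 and 16.6 in CD90neg control libraries A and B. The libraries stood apart by letter more than by population: the leading principal component (51.5% of the variance) separated A from B. Mitochondrially encoded genes took 2.31% and 0.670% of the reads in CD90pos control A and B, and 1.24% and 1.56% in CD90neg control A and B. Epithelial markers were present in all 4 control libraries, as summed levels of the 25 measured luminal markers were 338416 and 819546 in CD90pos A and B, against 432505 and 933571 in CD90neg A and B. Leukocyte markers were measured for 9 of 23 genes, without Ptprc, the gene of the common leukocyte antigen CD45. They summed to 2606 and 459 normalized reads in CD90pos A and B, against 1482 and 330 in CD90neg A and B, with 0 of the 9 called by limma, edgeR or DESeq2 and 2 at an unadjusted p under 0.05. The limma fit of only the 4 control libraries called 1 of the 9, as higher in CD90pos cells.

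Smooth muscle genes stood out among the increases in CD90pos cells, with the basal keratin Krt5 and the matrix protein gene Postn. Among the decreases were kallikrein peptidases and the genes Msln, Muc4 and Ltf. With the letter as a block, limma called 1451 genes (11.2% of 12962) at an adjusted p under 0.05. In CD90pos cells 881 of them were higher (6.8% of all genes) and 570 lower (4.4%), against 6.8% and 3.8% with edgeR on recovered reads. Without the block 0 genes were called, with 1898 at an unadjusted p under 0.05, because the fit then counts the difference between letters as spread. The number called was 5 after the trend on gene length and GC content was removed per library (0.0154% of genes higher and 0.0232% lower). It was 2468 without CD90pos control A (42.0% of them higher), 5 without CD90neg control A, 0 without CD90neg control B, 5 without CD90pos IFNg A, 3 without CD90pos IFNg B, and 2 without either CD90neg IFNg library. With 1 of these last 6 libraries left out, calls within the gene lists were limited to at most 2 contractile genes and 1 gene each of the growth factor, milk, fibroblast and secreted matrix lists. The fit of only the 4 control libraries called 1140 genes, of which 795 were among the 1451. In the plot of differences within each letter, the differences in A and B correlated across genes with r = 0.329, a description only, since genes are not independent.

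**Figure D1:**
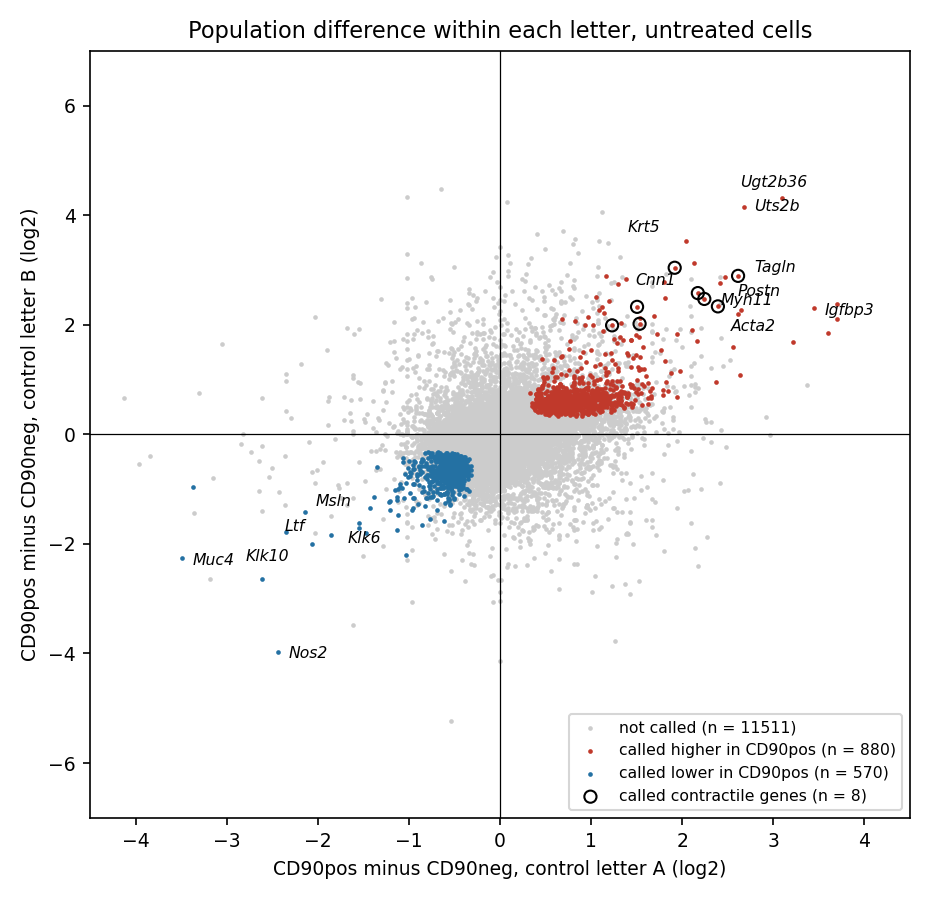
Each point is a gene; the x axis is the log2 difference between CD90pos and CD90neg control libraries within letter A and the y axis the same within letter B (Thy1 left out). Red points were called higher and blue points lower in CD90pos cells, and the 8 ringed contractile genes lie at 1.23 to 2.61 within A and 1.99 to 3.04 within B.

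Part of the contractile programme of smooth muscle was higher in CD90pos cells. The 16 measured genes summed to 253345 and 910370 in CD90pos A and B, against 238705 and 415625 in CD90neg A and B. The sums lay close together within A and further apart within B. Of 16 measured contractile genes 8 were called higher and 0 lower, beside 6.8% and 4.4% of all genes, and 12 were higher within both letters. The median log2 fold change was 1.15 over the 16 genes and -0.01 over all genes. Fewer cells of a type and less RNA per cell cannot be told apart in bulk samples. Acta2, which encodes smooth muscle alpha-actin (GRCm38 chromosome 19, 34241090 to 34255336), was at 3658 and 235195 normalized reads in CD90pos control A and B, against 696 and 46629 in CD90neg control A and B. CD90pos was above CD90neg within each letter, and the letters lay so far apart that CD90pos A was below CD90neg B. The log2 fold change was 2.36 (SE 0.12, adjusted p = 0.00368), with 2.39 within A and 2.33 within B. As a mean this was 119426 ± 163721 in CD90pos and 23662 ± 32480 in CD90neg control cells (SD, n = 2), an SD that the letters set.

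Tagln, the actin-binding protein transgelin (chromosome 9, 45929619 to 45936058), was at 2495 and 131590 in CD90pos A and B, against 407 and 17734 in CD90neg A and B (log2 fold change 2.75, SE 0.20, adjusted p = 0.0181). Myh11, the smooth muscle myosin heavy chain, was at 301 and 20413 in CD90pos A and B, against 62.8 and 3683 in CD90neg A and B (log2 fold change 2.36, SE 0.32, adjusted p = 0.0288). Cnn1, the actin- and myosin-binding protein calponin, was at 523 and 20685 in CD90pos A and B, against 115 and 3465 in CD90neg A and B (2.37, SE 0.30, adjusted p = 0.0288). These genes shared one pattern: higher in CD90pos within A and within B, and far higher in B than in A in both populations. The enteric actin gene Actg2 had a log2 fold change of 2.48, the myosin light chain gene Myl9 of 1.92, the myosin light chain kinase gene Mylk of 1.77 and the actin nucleator gene Lmod1 of 1.61. In all 8 genes CD90pos control A lay below CD90neg control B. Averaged over control and IFNg libraries, B exceeded A by 4.05 to 6.51 on the log2 scale. The other 8 members were not called. Among them the tropomyosin genes Tpm2 and Tpm1 had log2 fold changes of 0.57 and 0.14, caldesmon (Cald1) 0.41 and vinculin (Vcl) 0.20, and smoothelin (Smtn), a structural protein of contractile smooth muscle, had -0.39. Acta2 and Tagln were also called with the length and GC trend removed, at 2.10 and 2.51 (adjusted p = 0.0132 and 0.0382). The other 6 were not (adjusted p up to 0.0992). Over all 8 genes the log2 fold changes under that setting lay between 1.70 and 2.59. The count of called contractile genes was 0 without CD90neg control B, 2 without CD90neg control A or without any 1 of the IFNg libraries, 5 without CD90pos control B and 9 without CD90pos control A.

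**Figure D2:**
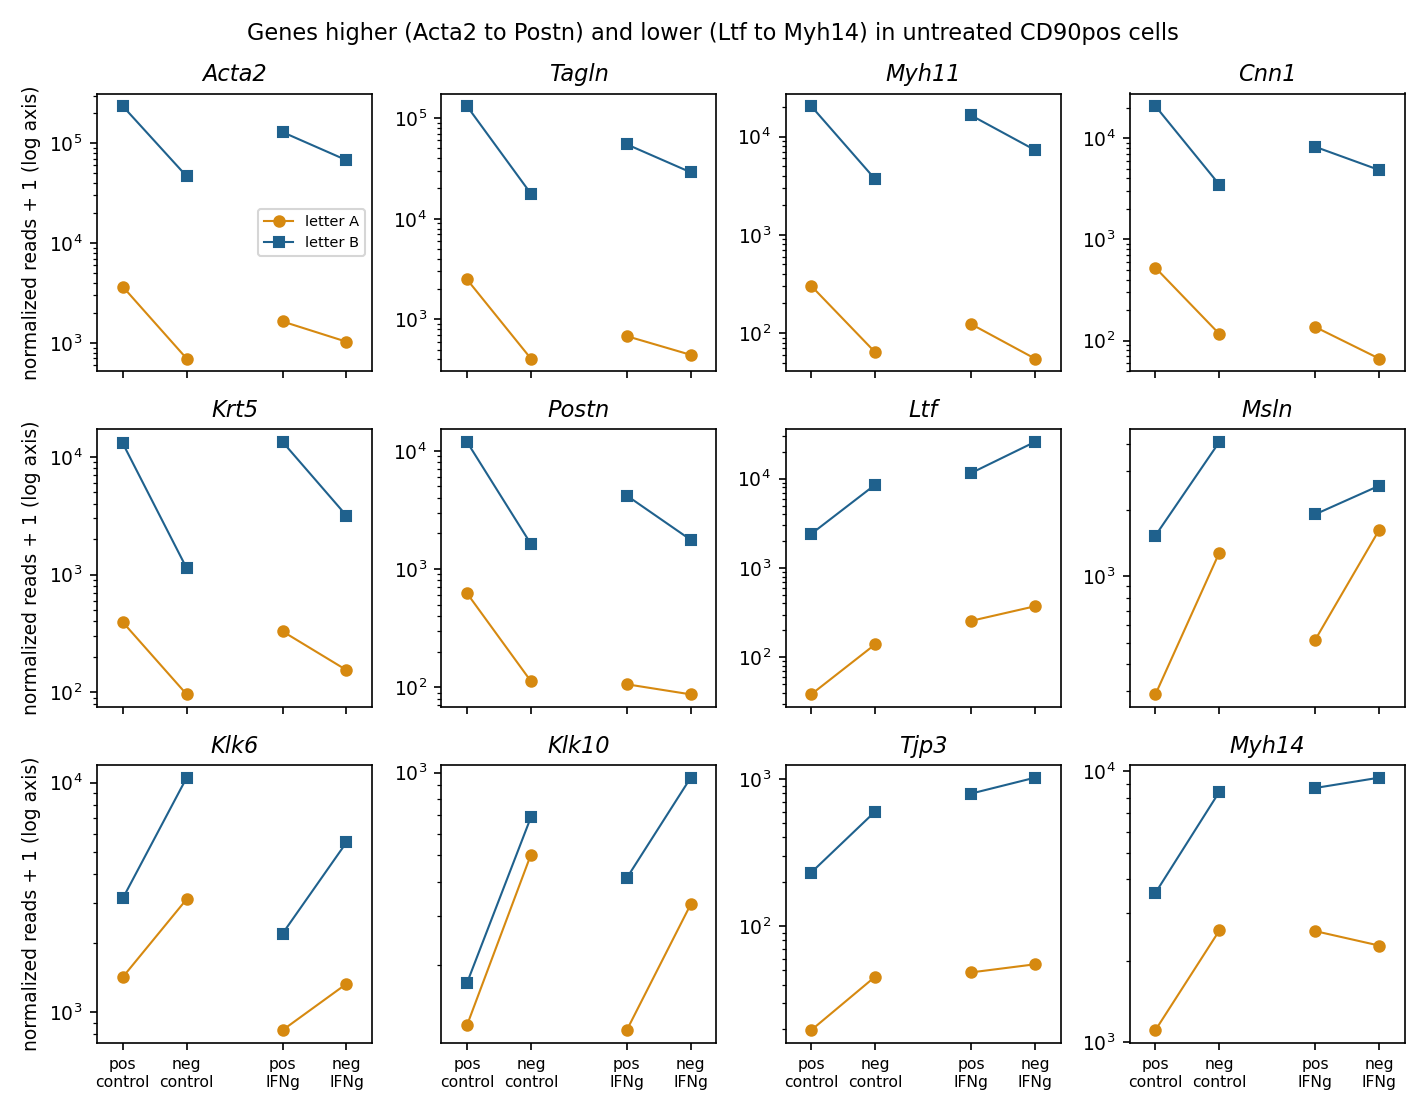
Normalized reads plus 1 (log axis) of 12 genes in each library, with CD90pos left of CD90neg in control and in IFNg libraries; a line joins the libraries of one letter. Lines of Acta2, Tagln, Myh11, Cnn1, Krt5 and Postn run down and those of Ltf, Msln, Klk6, Klk10, Tjp3 and Myh14 run up in both control letters, and the letters are often further apart than the populations.

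Promoters of contractile genes are shown because 8 of them moved together and their transcription is classically driven by serum response factor (SRF), which binds the CArG box, and in part by TEAD factors, which bind GGAATG. Windows from 250 bases before to 50 bases after the start were taken from RefSeq (GRCm38.p6), which matched 13 of the 16 measured genes and 9915 of all tested genes. Of the 8 called contractile genes 5 were matched, without Tagln, Myh11 and Actg2. Motifs were searched on both strands and are in capitals below, where Acta2 has GGAATG, Myl9 a CArG box and Cnn1 neither. The CArG box was searched only as CCWWWWWWGG, with W for A or T. The Acta2 window also holds ccctatatgg and ccttgtttgg, whose cores hold a C or a G. These were not counted and are not in capitals. Acta2 is at chr19:34255324-34255623 on the minus strand, Myl9 at chr2:156775214-156775513 on the plus strand and Cnn1 at chr9:22099003-22099302 on the plus strand.
Acta2: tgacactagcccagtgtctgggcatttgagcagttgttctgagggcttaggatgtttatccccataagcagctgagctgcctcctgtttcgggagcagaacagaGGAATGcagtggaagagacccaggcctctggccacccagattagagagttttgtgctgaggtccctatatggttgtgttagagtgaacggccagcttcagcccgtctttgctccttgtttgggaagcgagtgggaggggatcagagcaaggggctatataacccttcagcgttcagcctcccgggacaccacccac
Myl9: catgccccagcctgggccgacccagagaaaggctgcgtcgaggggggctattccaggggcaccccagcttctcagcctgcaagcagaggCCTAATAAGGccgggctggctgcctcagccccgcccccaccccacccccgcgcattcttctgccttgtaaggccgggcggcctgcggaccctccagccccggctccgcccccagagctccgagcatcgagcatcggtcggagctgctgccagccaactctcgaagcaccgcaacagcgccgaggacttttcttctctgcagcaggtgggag
Cnn1: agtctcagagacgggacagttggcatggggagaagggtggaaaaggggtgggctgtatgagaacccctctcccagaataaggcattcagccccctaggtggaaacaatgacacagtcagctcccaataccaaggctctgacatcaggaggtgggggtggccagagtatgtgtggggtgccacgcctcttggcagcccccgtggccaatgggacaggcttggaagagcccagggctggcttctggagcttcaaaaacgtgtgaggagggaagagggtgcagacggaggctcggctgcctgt

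The CArG box began 161 bases before the start in Myl9 and GGAATG 146 bases before it in Acta2. A CArG box of this exact form was found in 4 of the 13 contractile genes (30.8%), against 1.61% of all tested genes with a promoter. GGAATG was found in 7 of the 13 (53.8%), against 14.5%. The genes with a CArG box were Myl9, which was called higher, and Cnn2, Filip1l and Vcl, which were not called. GGAATG was found in the called genes Acta2, Lmod1 and Mylk and in Cald1, Smtn, Tpm1 and Vcl, which were not called. Among all genes called higher the shares were close to that background, with 1.87% for the CArG box and 13.6% for GGAATG, and among genes called lower they were 2.00% and 12.5%. The AP-1 motif (TGACTCA or TGAGTCA) was in 4.60% of genes called higher, 4.23% called lower and 4.82% of all, and CACCTG, an E-box of ZEB and SNAI factors, in 18.2%, 23.2% and 21.4%. A match is a run of letters and not a measured site, and no match says only that these letters are not in this window.

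Among basal markers the keratin gene Krt5 had the largest difference, while Krt14 did not follow it. Krt5 (chromosome 15, 101707070 to 101712891) was at 393 and 13087 normalized reads in CD90pos A and B, against 94.7 and 1131 in CD90neg A and B (log2 fold change 2.79, SE 0.39, adjusted p = 0.0288). Both letters ran the same way, with CD90pos A below CD90neg B. Krt14 was at 2872 and 30236 in CD90pos A and B, against 5328 and 20211 in CD90neg A and B, which is lower within A and higher within B (-0.16, adjusted p = 0.843). The metalloendopeptidase Mme (CD10, a myoepithelial surface marker) was at 2231 and 1855 in CD90pos A and B, above the 1214 and 1267 of CD90neg A and B (0.71, SE 0.15, adjusted p = 0.0359). Itgb4, the hemidesmosome integrin, was lower, at 13346 and 11899 in CD90pos A and B, against 19619 and 16938 in CD90neg A and B (-0.53, SE 0.13, adjusted p = 0.0446). It had -0.11 with the length and GC trend removed, and it was not called by edgeR (adjusted p = 0.0507) or with only the control libraries (adjusted p = 0.111). For Mme and Itgb4 the populations did not overlap, as in 19.8% of all genes for CD90pos above and 17.6% for CD90pos below. Trp63, the transcription factor of basal cells, had 1.28 (SE 0.58, adjusted p = 0.188) and the hemidesmosome collagen gene Col17a1 1.95 (SE 0.56, adjusted p = 0.0675). In all, 2 of 22 basal markers were called higher and 1 lower, beside 6.8% and 4.4% of all genes. The counts higher and lower were 5 and 0 with only the control libraries, 5 and 1 with DESeq2 and 2 and 0 with edgeR. With the length and GC trend removed 0 were called. The median over the 22 was 0.30, with -0.11 within A and 0.83 within B.

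No luminal marker was called by limma on all libraries or by edgeR, with 5 at an unadjusted p under 0.05 and 5 called lower by DESeq2. With only the control libraries limma called 2 lower and 0 higher. Of 25 measured, 15 were lower in CD90pos cells within both letters and 0 higher, beside 32.2% and 32.7% of all genes, with a median log2 fold change of -0.31. Krt8 was at 81212 and 277798 in CD90pos A and B, against 116212 and 289471 in CD90neg A and B (-0.29, adjusted p = 0.486), and Epcam, the epithelial adhesion molecule, at 9200 and 16796, against 10714 and 21285 (-0.28, adjusted p = 0.354). The E-cadherin gene Cdh1 had -0.33 (adjusted p = 0.177), the epithelial transcription factor gene Elf3 -0.65 (adjusted p = 0.0780) and the receptor gene Erbb3 -0.70 (adjusted p = 0.0885). Markers often used to sort mammary cells differed little on the log2 scale: Cd24a by 0.09, Cd44 by 0.06 and Itga6 by 0.03, with SE between 0.14 and 0.21. The first of these turned negative with the length and GC trend removed, and all 3 turned negative without CD90pos control A.

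Other increases by size came from several functions. Uts2b, which encodes the vasoactive peptide urotensin 2B, was at 38.3 and 2158 in CD90pos A and B, against 5.15 and 121 in CD90neg A and B (3.41, SE 0.61, adjusted p = 0.0306). Igfbp3, a carrier of insulin-like growth factors, was at 54.7 and 935 in CD90pos A and B, against 4.12 and 189 in CD90neg A and B (2.87, SE 0.35, adjusted p = 0.0288). Both were higher in CD90pos within each letter. Jph2, which holds the sarcoplasmic reticulum to the plasma membrane in muscle, had 2.63, Kcnmb1, a potassium channel subunit of smooth muscle, 2.59 and Mrvi1, a regulator of calcium release in smooth muscle, 2.46. The glucuronosyltransferase gene Ugt2b36 (3.71), the homeobox gene Irx4 (3.04), the ubiquitin ligase adaptor gene Asb2 (2.91), the serpin gene Serpinb6b (2.73) and the diacylglycerol kinase gene Dgkk (2.45) had 36.1 normalized reads or fewer in CD90pos A and 2.06 or fewer in CD90neg A, so their size depends on the pseudocount. Irx4 was 2.05 with a pseudocount of 5 and 3.51 with 0.5, where it was no longer called (adjusted p = 0.0587), as with edgeR and DESeq2 (adjusted p = 0.0658 and 0.0695). With a pseudocount of 5, Asb2 was 1.93 and Dgkk 1.92, the last no longer called (adjusted p = 0.0646). With quantile normalization Ugt2b36, Jph2 and Dgkk were not called (adjusted p between 0.0531 and 0.0891). Ugt2b36 and Serpinb6b belong to families of close copies, and reads shared between copies may have been split. All 15 of the largest increases were higher in B than in A, by 1.33 to 7.25 on the log2 scale, averaged over control and IFNg libraries. All 15 kept their direction with the length and GC trend removed (2.20 to 3.20), where only Tagln of the 15 was called.

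Matrix and mesenchymal genes held a few large increases. Postn, the matricellular protein periostin of fibroblasts and myoepithelium (chromosome 3, 54361109 to 54391037), was at 622 and 11887 in CD90pos A and B, against 111 and 1625 in CD90neg A and B (2.67, SE 0.32, adjusted p = 0.0288). Lox, which crosslinks collagen, was at 373 and 1257 in CD90pos A and B, against 179 and 221 in CD90neg A and B (1.78, SE 0.37, adjusted p = 0.0365; 0.0531 with quantile normalization). Its relative Loxl4 was lower, at 1241 and 832 in CD90pos A and B, against 2110 and 1257 in CD90neg A and B (-0.68, adjusted p = 0.0293). Of 27 secreted matrix genes 2 were called higher and 1 lower, shares near those of all genes. Of 19 fibroblast markers 2 were called higher (10.5%, beside 6.8% of all genes), Postn and the collagen gene Col5a2 (1.23), and 0 lower. Fibroblast markers as a list ran apart between letters, with a median of -0.07 within A and 0.93 within B. The fibroblast receptor gene Pdgfra was at 171 and 99.9 in CD90pos A and B, against 159 and 74.9 in CD90neg A and B (0.26, adjusted p = 0.595). Of 17 genes of the epithelial-mesenchymal transition 2 were called higher (11.8%, beside 6.8% of all genes) and 0 lower. The 2 were the homeobox gene Prrx1 (1.27, adjusted p = 0.0338, or 0.0533 with quantile normalization) and the calcium-binding protein gene S100a4 (1.16, adjusted p = 0.0446). Vim, vimentin, was at 46445 and 17542 in CD90pos A and B, against 50710 and 7320 in CD90neg A and B, lower within A and higher within B (0.57, adjusted p = 0.243). Mcam, a surface molecule of pericytes, smooth muscle and endothelium, was at 3404 and 13808 in CD90pos A and B, against 2280 and 5996 in CD90neg A and B (0.89, adjusted p = 0.0355). It was the called gene among 5 endothelial and pericyte markers measured of 16, a list measured without Pecam1 and Kdr, and the summed level of the 5 was 6511 and 16147 in CD90pos A and B, against 6352 and 8010 in CD90neg A and B. The part of other cell types in these differences was not tested.

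Of 17 checkpoint and T cell ligands measured 3 were called higher, Fas, Cd40 and Entpd1, and 0 lower (17.6%, beside 6.8% higher over all genes). The count was 1 with quantile normalization, which did not call Cd40 (adjusted p = 0.0503) or Entpd1 (adjusted p = 0.0718). It was 2 with median centring, which did not call Entpd1 (adjusted p = 0.0504), 4 with DESeq2 and 5 with only the control libraries. Fas, the death receptor, was at 420 and 547 in CD90pos A and B, against 171 and 236 in CD90neg A and B (1.25, SE 0.16, adjusted p = 0.0288). Of 15 caveolae and GPI-linked Ly6 genes 2 were called higher, Cd59a and Cav2, and 0 lower (13.3%). Cd59a, an inhibitor of complement, was at 924 and 1301 in CD90pos A and B, against 328 and 369 in CD90neg A and B (1.65, SE 0.19, adjusted p = 0.0288). Cd40, a receptor of the tumour necrosis factor family, was at 125 and 425 in CD90pos A and B, against 19.6 and 92.6 in CD90neg A and B (2.40, SE 0.47, adjusted p = 0.0345). In Fas, Cd59a and Cd40 both CD90pos libraries lay above both CD90neg libraries, as in 19.8% of all genes. Entpd1 (CD39), which breaks down extracellular ATP, was at 42.7 and 2124 in CD90pos A and B, against 14.4 and 1075 in CD90neg A and B (1.24, adjusted p = 0.0483). Cav2, a caveolin, was at 18391 and 9925 in CD90pos A and B, against 6244 and 5247 in CD90neg A and B (1.24, adjusted p = 0.0288). Over all settings the log2 fold change was as low as 0.70 for Fas, 1.10 for Cd59a and 0.77 for Cav2. With the length and GC trend removed, 0 checkpoint genes and 0 caveolae and Ly6 genes were called (smallest adjusted p = 0.0992 and 0.0986). Among 26 Wnt ligands and receptors 2 were called higher (7.69%, near the 6.8% of all genes) and 0 lower: Dkk3, a secreted protein of the Dickkopf family, at 2.29, and Wls, which carries Wnt proteins to the cell surface, at 0.92. Wls was at 6791 and 7298 in CD90pos A and B, against 3702 and 3727 in CD90neg A and B, with next to no difference between letters. Aldh1a1, a retinal dehydrogenase used as a progenitor marker, had 1.83 (adjusted p = 0.0374, or 0.0679 with quantile normalization), and Sox9, a transcription factor of progenitors, -0.66 (adjusted p = 0.0422).

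Kallikrein-related peptidases were lower in CD90pos cells. These secreted serine proteases lie in a cluster on chromosome 7, and 4 of the 5 measured were called lower, beside 4.4% of all genes, and 0 higher. The count was 3 without CD90pos control A, 1 without CD90pos control B and 0 without any 1 of the other 6 libraries. The list was gathered by symbol after 3 of its members had been seen among the largest decreases. Klk10 (chromosome 7, 43781035 to 43785410) was at 119 and 171 normalized reads in CD90pos A and B, against 502 and 688 in CD90neg A and B (-2.03, SE 0.37, adjusted p = 0.0313), and Klk6 at 1421 and 3129, against 3106 and 10504 (-1.44, SE 0.21, adjusted p = 0.0288). Klk10 did not overlap between populations, with CD90pos below as in 17.6% of all genes, whereas Klk6 was lower within each letter only. Klk7 had -1.62 and Klk8 -0.79. All 5 were lower within both letters, with a median of -1.44, and all 5 were also lower in CD90pos within both letters of the IFNg libraries, with a median of -1.07. After removal of the length and GC trend the median was -1.67, with 0 of the 5 called (smallest adjusted p = 0.0926).

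Other decreases included genes of secreted and surface proteins. Ltf, the milk iron-binding protein lactoferrin (chromosome 9, 111019271 to 111042767), was at 37.2 and 2404 in CD90pos A and B, against 138 and 8563 in CD90neg A and B (-1.85, SE 0.17, adjusted p = 0.0288). It was called after the length and GC trend was removed too (-1.90, adjusted p = 0.0394). Msln, the surface protein mesothelin, was at 290 and 1532 in CD90pos A and B, against 1282 and 4084 in CD90neg A and B (-1.78, SE 0.36, adjusted p = 0.0355). The membrane mucin gene Muc4 was at 0 and 388 in CD90pos A and B, against 10.3 and 1873 in CD90neg A and B (-2.88, SE 0.34, adjusted p = 0.0288), a size that was -1.93 with a pseudocount of 5. Nos2, the inducible nitric oxide synthase, was at 15.3 and 1.12 in CD90pos A and B, against 87.5 and 32.3 in CD90neg A and B (-3.20, SE 0.65, adjusted p = 0.0359), a low level in all 4 libraries that lies near 1 read in CD90pos B. It was not called by edgeR (adjusted p = 0.0543) or with quantile normalization (adjusted p = 0.0503). Among milk and secretory genes Ltf and Msln were the called members of 13 measured (15.4%, beside 4.4% of all genes called lower). The prolactin-family genes Prl2c2 (-1.26) and Prl2c3 (-0.64), close copies of each other that may share reads, ran opposite to most by letter: Prl2c2 was at 1535 and 30.3 in CD90pos A and B, against 2780 and 97.8 in CD90neg A and B. Both were called with the length and GC trend removed (adjusted p = 0.0132 and 0.0382). The other large decreases were the spectrin gene Sptb (-1.63), the anoctamin gene Ano9 (-1.63), the lipid flippase gene Atp10b (-1.38), the receptor kinase gene Ltk (-1.30) and the calcium pump gene Atp2c2 (-1.27).

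Junction genes held more decreases than increases. Of 29 tight junction, adherens junction and desmosome genes 7 were called lower and 2 higher, beside 4.4% and 6.8% of all genes, with a median of -0.26. Tjp3, a tight junction scaffold, was at 18.6 and 230 in CD90pos A and B, against 44.3 and 599 in CD90neg A and B (-1.29, SE 0.25, adjusted p = 0.0339). Cgn, cingulin of the tight junction, was at 1026 and 3742 in CD90pos A and B, against 1492 and 7303 in CD90neg A and B (-0.75, adjusted p = 0.0293). The desmosome plaque genes Pkp3 and Dsp had -0.66 and -0.49, Jup (plakoglobin) -0.51 and Pkp4 -0.48. Perp, a desmosome-associated target of p53, was higher, at 24468 and 23156 in CD90pos A and B, against 15409 and 10794 in CD90neg A and B (0.88, adjusted p = 0.0376), and so was the claudin gene Cldn12 (0.70). Myh14, a non-muscle myosin of epithelia, was at 1107 and 3559 in CD90pos A and B, against 2585 and 8412 in CD90neg A and B (-1.23, SE 0.13, adjusted p = 0.0288). None of the junction genes was called with the length and GC trend removed (smallest adjusted p = 0.117), where the median was -0.25. The count of lower junction genes was 7 without either CD90pos control library and 0 without any 1 of the other 6 libraries.

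Proliferation and lipid synthesis genes were split. Of 32 S phase genes 5 were called lower and 1 higher, beside 4.4% and 6.8% of all genes, with a median of -0.50 within A and 0.06 within B. The number lower was 4 without CD90pos control A, 14 without CD90pos control B and 0 without any 1 of the other 6 libraries. Uhrf1, which helps copy DNA methylation, was at 2315 and 4780 in CD90pos A and B, against 4672 and 7294 in CD90neg A and B (-0.81, adjusted p = 0.0358), and the replication licensing gene Cdc6 had -0.80. Of 33 G2M genes 1 was called lower and 1 higher, beside 4.4% and 6.8% of all genes, with a median of -0.44 within A and 0.44 within B. The proliferation marker Mki67 was called lower, at 4079 and 6763 in CD90pos A and B, against 7908 and 12630 in CD90neg A and B (-0.93, adjusted p = 0.0362). The kinetochore gene Nuf2 was called higher (0.66). Fasn, fatty acid synthase, was at 14204 and 18027 in CD90pos A and B, against 29048 and 33539 in CD90neg A and B (-0.96, SE 0.11, adjusted p = 0.0288). Over all settings Fasn lay between -1.05 and -0.46. Of 28 sterol and fatty acid synthesis genes 5 were called lower and 2 higher, beside 4.4% and 6.8% of all genes. With only the control libraries 1 was called each way. With the length and GC trend removed 0 were called (smallest adjusted p = 0.118). The AP-1 genes Fosl1 (-0.77) and Jund (-0.85) were the called members, both lower, of 27 immediate early and heat shock genes (7.41%, beside 4.4% of all genes). Of the 27 genes 19 were lower within both letters, beside 32.2% of all genes. Of 49 interferon response genes 1 was called lower (2.04%, beside 4.4% of all genes). It was the guanylate-binding protein gene Gbp6, at 4.38 and 0 in CD90pos A and B, against 31.9 and 5.20 in CD90neg A and B. Gbp6 was not called by edgeR or DESeq2 (adjusted p = 0.0850 and 0.0607), with quantile normalization or with only the control libraries. Of 23 MHC class I presentation genes 0 were called by limma, edgeR or DESeq2, with 1 at an unadjusted p under 0.05. Limma and edgeR also called 0 of 36 TGF-beta and BMP pathway genes (6 at an unadjusted p under 0.05, 2 higher and 1 lower by DESeq2) and 0 of 18 Notch pathway genes (4, and 2 lower by DESeq2). With only the control libraries limma called 1 TGF-beta and BMP pathway gene higher and 2 Notch pathway genes lower.

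**Figure D3:**
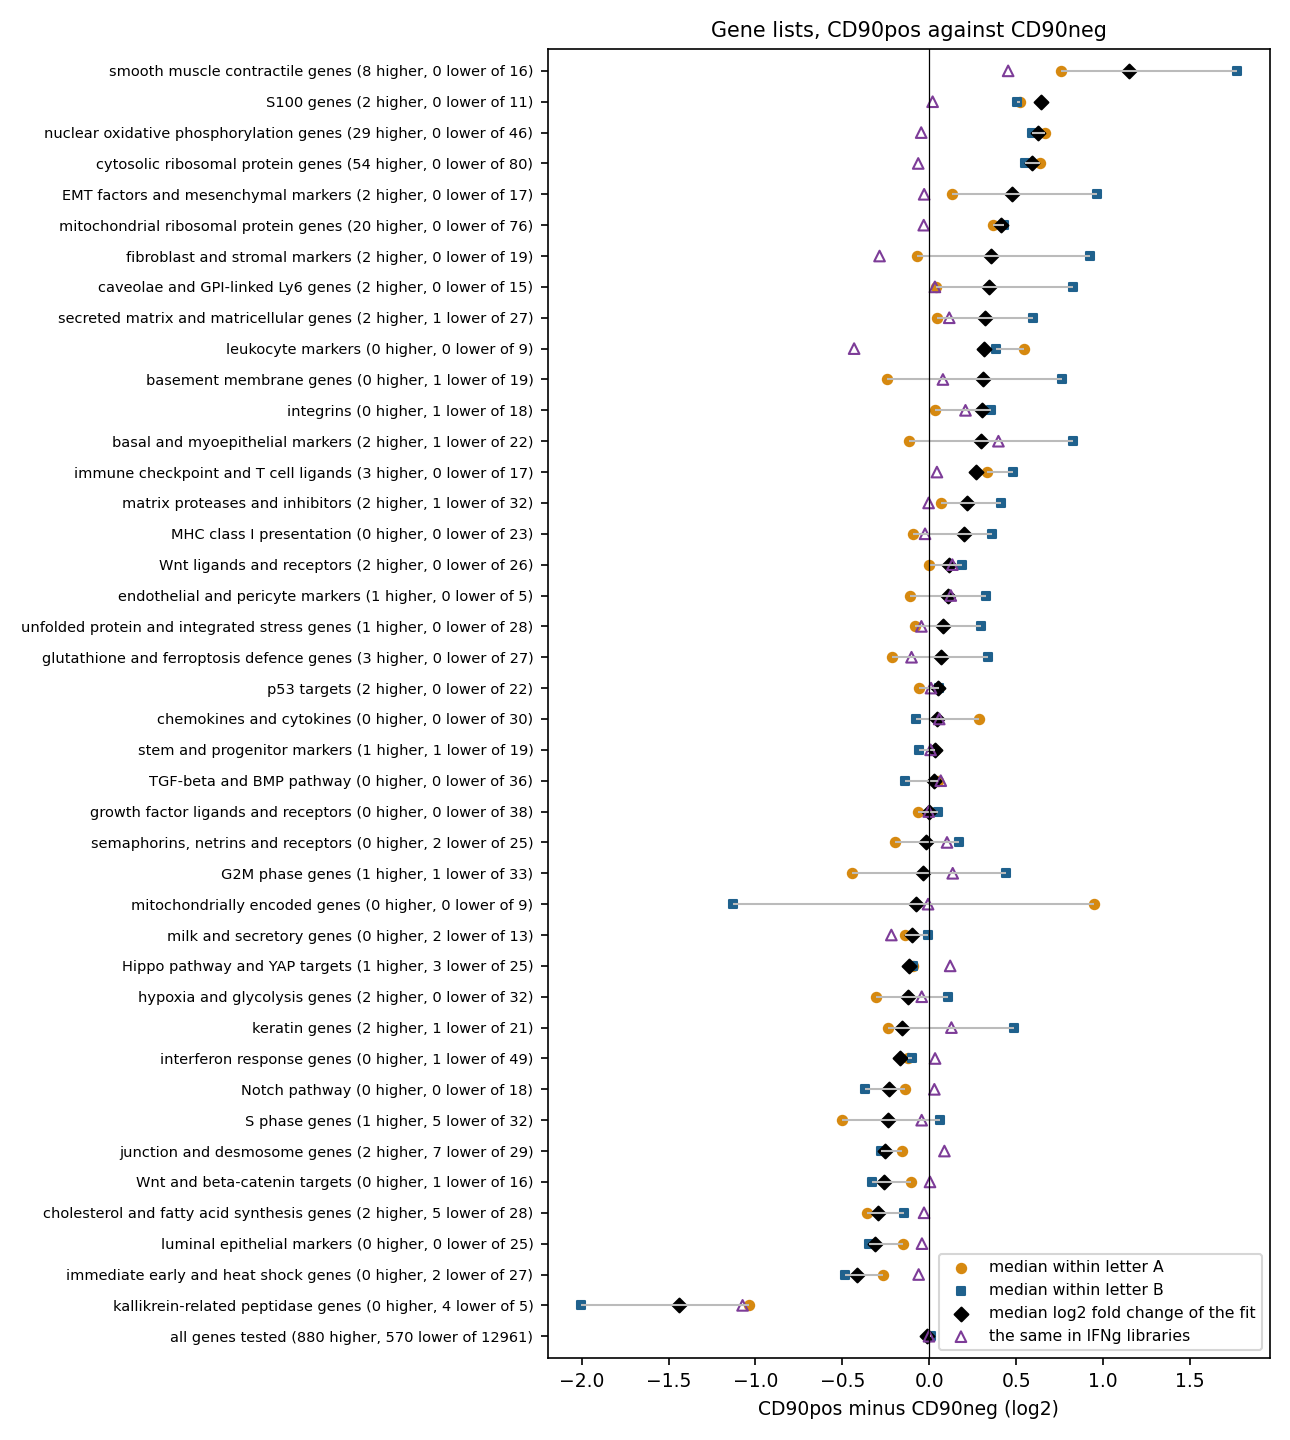
Median log2 difference between CD90pos and CD90neg for each list with 5 or more measured genes, in control libraries (diamond, with the medians within letter A and B joined by a line) and in IFNg libraries (triangle); labels give the genes called in control libraries. Contractile genes have the highest control median (1.15) and kallikreins the lowest (-1.44), and several lists, such as mitochondrially encoded genes (0.95 within A, -1.13 within B), run opposite ways in the letters.

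Genes of the mitochondrial respiratory chain and of the ribosome made up many of the smaller increases. Of 46 nuclear oxidative phosphorylation genes 29 were called higher and 0 lower, with a median of 0.63, and of 80 cytosolic ribosomal protein genes 54 higher and 0 lower, with a median of 0.59, beside 6.8% higher over all genes. Mitochondrial ribosomal protein genes had 20 of 76 called higher, with a median of 0.41. The cytosolic ribosomal count was 33 with quantile normalization, 32 with only the control libraries and 49 with edgeR, and the oxidative phosphorylation count 29, 25 and 29. Each list had 0 called without either CD90neg control library or any 1 IFNg library. Without CD90pos control B the counts were 40 cytosolic ribosomal and 24 oxidative phosphorylation genes. Both ribosomal lists were gathered by symbol after the values were seen. Cox7a2, a subunit of cytochrome c oxidase, was at 9247 and 7555 in CD90pos A and B, against 4319 and 4509 in CD90neg A and B (0.92, SE 0.12, adjusted p = 0.0288). Rps24, a protein of the small ribosomal subunit named after its values were seen, was at 58830 and 39420 in CD90pos A and B, against 23661 and 25521 in CD90neg A and B (0.97, adjusted p = 0.0308). In both genes the populations did not overlap, with CD90pos above as in 19.8% of all genes. Ribosomal protein genes have many processed copies in the genome, and reads shared with them may have been left out or split. The mitochondrially encoded genes did not follow: 0 of 9 were called by limma, edgeR or DESeq2, with 0 at an unadjusted p under 0.05 and a median of 0.95 within A and -1.13 within B. Gpx4 and Gpx1, the glutathione peroxidases that remove lipid and other peroxides, had 0.79 and 0.78, and the mitophagy receptor gene Bnip3 1.03.

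These lists hold short genes, and the difference between populations ran with gene length and GC content over the whole table. The median exonic length was 1870 bases for the oxidative phosphorylation genes and 1806 for the ribosomal protein genes, against 4434 over all genes, and it was 3130 for all genes called higher and 6117 for all genes called lower. In the quintile of shortest genes 325 were called higher and 18 lower, and in the quintile of longest genes 85 and 181. In the quintile of lowest GC content 390 were called higher and 8 lower, and in the quintile of highest GC content 32 and 271. Across 12947 genes Spearman's rho of the log2 fold change was -0.26 with length (-0.12 within A, -0.33 within B) and -0.39 with GC content (-0.53 within A, -0.16 within B), as a description. With the trend removed the medians were 0.24 for oxidative phosphorylation genes and 0.34 for ribosomal protein genes, with 0 genes of either list called (smallest adjusted p = 0.0926 in each), and 1.28 for contractile genes. The part of RNA quality or library preparation in this trend was not tested.

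**Figure D4:**
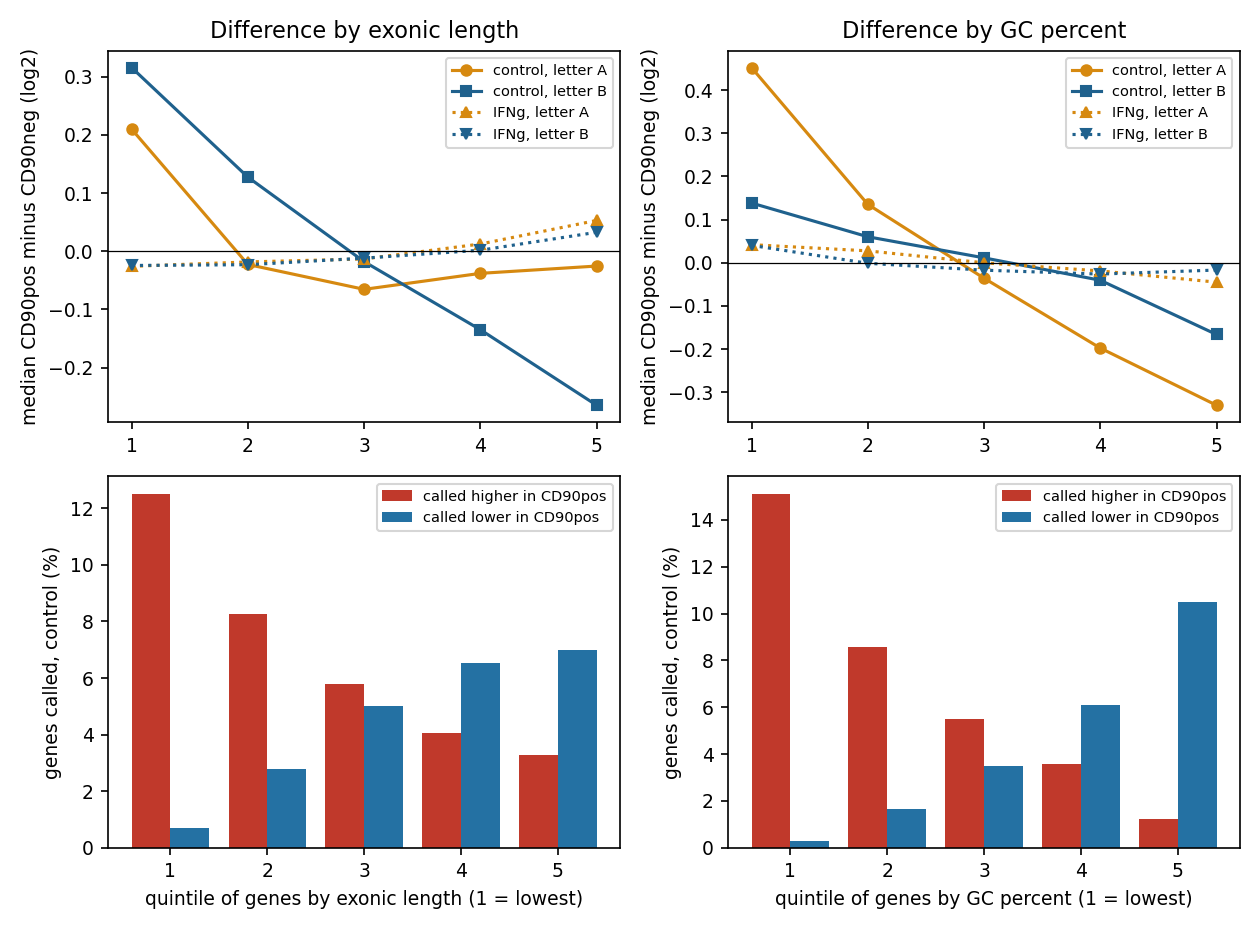
Upper panels give the median log2 difference between CD90pos and CD90neg in quintiles of genes by exonic length and by GC percent, for each letter in control (solid) and IFNg (dotted) libraries; lower panels give the percentage of genes called in control libraries. The control line of letter A has medians of 0.45 in the quintile of lowest GC content and -0.33 in the quintile of highest GC content, IFNg lines lie closer to 0, and calls shift from higher to lower along both axes.

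In the IFNg libraries, which share the estimate of spread with the control comparison but not its fold changes, 0 of 12962 genes were called by limma (168 at an unadjusted p under 0.05), with 0 by edgeR and 17 by DESeq2. Of the 15 largest increases 10 were higher in CD90pos within both IFNg letters and 0 lower, and of the 15 largest decreases 11 were lower and 0 higher, beside 26.1% and 26.9% of all genes. Over the 880 genes called higher other than Thy1 the share was 37.0%, with 19.4% lower within both letters, and over all 570 called lower it was 35.4%, with 22.8% higher. Acta2 was at 1639 and 129112 in CD90pos IFNg A and B, against 1027 and 67619 in CD90neg IFNg A and B, a log2 fold change of 0.80 that was not called. Krt5 was at 328 and 13452 in CD90pos IFNg A and B, against 153 and 3170 in CD90neg IFNg A and B (1.59), and Klk10 at 115 and 413, against 331 and 959 (-1.37). Both kept their order in each IFNg letter. Over the 8 called contractile genes the log2 fold change in IFNg libraries lay between 0.22 and 1.17, and all but Actg2 were higher in CD90pos within both letters. The oxidative phosphorylation and cytosolic ribosomal genes did not carry over, with medians of -0.05 and -0.06 and with 22 of 46 and 54 of 80 lower in CD90pos within both IFNg letters. Whether the population difference itself differed between IFNg and control libraries was tested as an interaction, which called 0 genes with limma (2154 at an unadjusted p under 0.05), 0 with edgeR and 583 with DESeq2. The interaction had adjusted p-values between 0.179 and 0.291 for the 8 contractile genes.

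**Figure D5:**
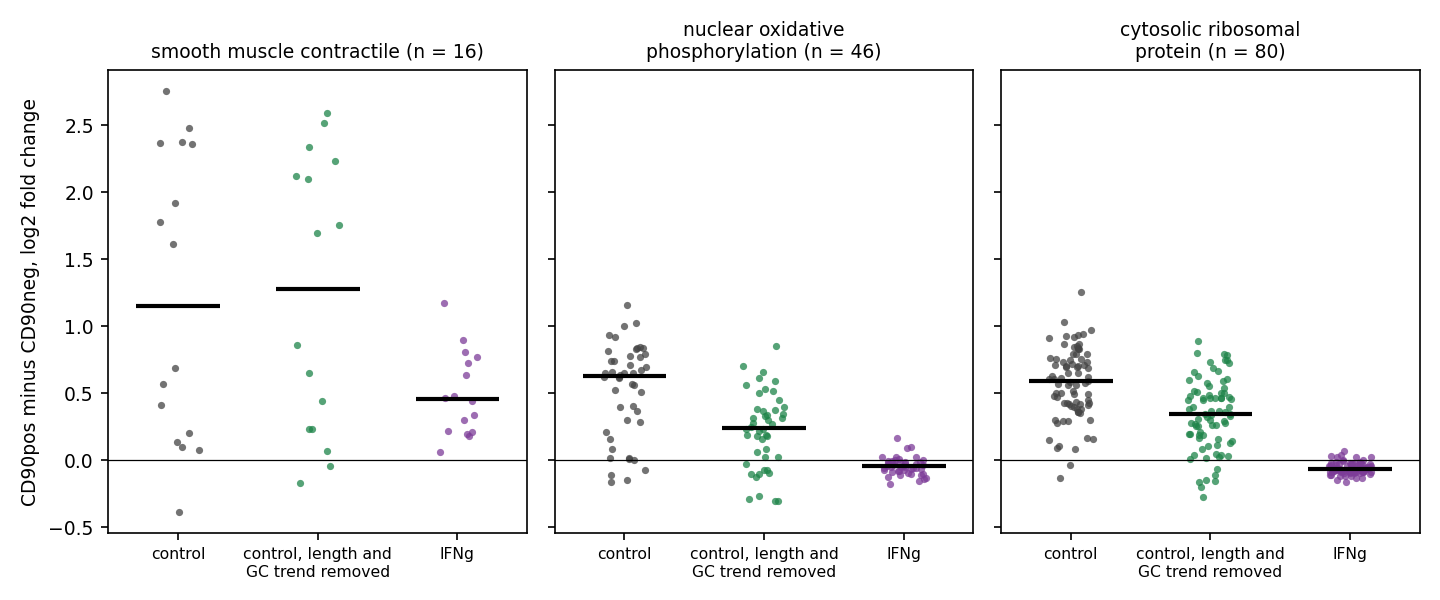
Log2 fold change of CD90pos over CD90neg for each measured member (point) of 3 lists, with the list's median as a bar, in control libraries, in control libraries with the length and GC trend removed and in IFNg libraries. Contractile medians are 1.15, 1.28 and 0.45, while oxidative phosphorylation genes have 0.63, 0.24 and -0.05 and cytosolic ribosomal protein genes 0.59, 0.34 and -0.06.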

How the data were processed

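The authors deposited 1 table of normalized reads (signal, 0 or above) per gene for 8 libraries and 12964 genes; 0 columns belonged to other samples. STAR, HTSeq, mm10 and GRCm38 are named, with no version, in the submitters' processing notes. RNA of sorted cells was prepared with a kit for small inputs and a stranded mRNA library kit, per the labels' protocols. Each column held whole multiples of 1 step, and dividing by it gave whole reads for 100% of values within 0.001. No gene peaked below 43.4 normalized reads. Genes at 10 or more in at least 2 libraries were analysed as log2(value + 1), the scale of every fold change, which understates changes of low genes.

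Tests used limma 3.58.1 under R 4.3.3 over all 8 libraries, with 1 mean per group, the letter as a block and a variance trend, two-sided, with Benjamini-Hochberg adjustment (called under 0.05). All adjusted p-values are from this limma fit unless another is named. Because the table held normalized reads, edgeR 4.0.16 (quasi-likelihood, TMM) and DESeq2 1.42.0 were run on the recovered reads as alternatives. The block was kept because A-minus-B differences correlated at 0.779 to 0.920 across genes over the pairs of groups, and libraries were paired by letter; no label used here says what a letter marks. The length and GC alternative removed a smooth trend per library for 12947 genes. Floors of 3 reads cover counting error only.

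Named genes were the 15 largest increases and 15 largest decreases among called genes with the same sign in both letters and a mean of 50 or more in the higher group, up to 4 members per list by p, and set markers; other list members were named after their values were seen. The members and lists were chosen with earlier results of these data known, and 4 lists gathered by symbol were added later. Scripts were tested on simulated data. Promoters came from RefSeq (GRCm38.p6), gene positions from the deposited table (GRCm38).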

Additional observations from a re-analysis of the deposited data

Results flagged for a closer look

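Results below ran one way in both letters of the control libraries and the other way in both letters of the IFNg libraries, or, for lists, had medians that did. For lists the difference between IFNg and control libraries was not tested, and for single genes the interaction called 0 of 12962 genes by limma (2154 at an unadjusted p under 0.05), 0 by edgeR and 583 by DESeq2. Among lists that were higher in CD90pos control cells, the IFNg median was -0.43 for leukocyte markers (control 0.32). With a filter of 50 in at least 4 libraries, 4 of these 9 markers were left, at a control median of 0.057. The IFNg medians were -0.046 for nuclear oxidative phosphorylation genes (control 0.63) and -0.063 for cytosolic ribosomal protein genes (control 0.59). For mitochondrial ribosomal protein genes the IFNg median was -0.032 (control 0.41). Among lists that were lower in CD90pos control cells, the IFNg medians were 0.087 for junction and desmosome genes (control -0.26), 0.0045 for Wnt and beta-catenin targets (control -0.26) and 0.12 for Hippo pathway and YAP targets (control -0.11).

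Among genes called higher in CD90pos control cells, Prrx1 was at -0.45 in IFNg libraries, S100a4 at -0.26, Col5a2 at -0.44, the matrix protease gene Mmp10 at -0.33, Bnip3 at -0.11 and Gpx4 at -0.12. Among genes called lower, Itgb4 was at 0.26, Cgn at 0.021 and Pkp3 at 0.035. Prrx1 was at 65.2 and 987 normalized reads in CD90pos IFNg A and B, against 111 and 1085 in CD90neg IFNg A and B, and Itgb4 at 22189 and 24034, against 20434 and 18310. The interaction had an adjusted p of 0.179 for Prrx1 and 0.179 for Itgb4. The part of gene length and GC content in these reversals was not tested, and in control libraries with that trend removed Prrx1 had 1.18 and Itgb4 -0.11.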

How the results depend on the processing

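The number of genes called in control libraries was 1451. It was 0 with no replicate block, 0 with no variance trend, 2531 with DESeq2 on recovered reads and 5 with the length and GC trend removed in the fit with the replicate block (Acta2 and Tagln higher, Ltf, Prl2c2 and Prl2c3 lower); what the loss without a variance trend comes from was not tested. Leaving out 1 library gave between 0 (without CD90neg control B) and 2468 (without CD90pos control A) genes. It lay within 1.5 times with only the 4 control libraries (1140, of which 68.9% were higher against 60.7%), other pseudocounts, no filter or a filter of 50 in at least 4 libraries, quantile normalization, median centring and edgeR (1375). All 30 genes of largest change kept their direction wherever they were tested. In IFNg libraries DESeq2 called 17 genes and for the interaction 583, against 0 in the limma fits with and without the block. The fit of only the control libraries gives no value for either.

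Signs turned in markers that were not called, namely Cd44 (-0.12) and Itga6 (-0.0046) with quantile normalization, Cd24a (-0.16) with length and GC removed, Krt8, Krt14, Cd24a, Cd44 and Itga6 without CD90pos control A, Cd24a also without CD90neg control A, and Itga6 and Pdgfra without CD90neg control B; the cause was not tested. With 1 library left out, Krt8 ranged between -0.63 and 0.051, Krt14 between -1.03 and 0.72, Cd24a between -0.15 and 0.33, Cd44 between -0.074 and 0.20, Itga6 between -0.25 and 0.31 and Pdgfra between -0.047 and 0.56. Where the library left out was a control library, these values drew in part on the IFNg libraries. With 2 libraries a group, an exact two-sided permutation test cannot go below p = 0.333 unpaired or 0.5 paired, and gave 0.667 and 0.5 for Acta2. Depth limits genes near 3 reads, such as Nos2 and Gbp6 in CD90pos B.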
